A study of Mus musculus with 20 samples.

Results

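The muscle of trained transgenic mice was compared with the muscle of trained wild-type mice, 5 against 5, to ask what the transgene changes in animals that have all done endurance training. The mice were chosen by title: TGT for trained transgenic and WTT or wtt for trained wild-type, 10 of the 20 mice of the series. The other 10 are untrained, 5 transgenic (TGUT) and 5 wild-type (WTUT), and serve here as a second set of animals in which the same genotypes were compared. The series title gives the transgene as over-expression of MHC-I, without spelling out the abbreviation. The sources used here do not give the promoter, the construct, the strain, the muscle, the sex, the age or the training protocol, and nothing says whether mice shared a litter or a cage. A description field calls every sample transgenic and trained, against the titles and source names, which were followed.

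Skeletal muscle is built of slow fibres, which contract for long periods on oxidative metabolism, and fast fibres, which contract quickly and tire sooner. Each kind has its own set of myosins, troponins, tropomyosins and calcium pumps, and endurance training is known to shift muscle towards slow and oxidative properties. MHC class I molecules present peptides from inside the cell to CD8 T cells, and their over-expression in muscle fibres of mice is known as a model of inflammatory muscle disease. Muscle also responds to glucocorticoid hormones and fasting with a programme of protein breakdown that includes ubiquitin ligases, cathepsins and autophagy genes.

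One array per mouse gave the brightness of each probe set as a linear intensity. Differences are transgenic minus wild-type, on a log2 scale after adding 66.7 to each intensity, which shrinks the changes of dim genes, with ± for the standard error, and a gene is said to rise or fall where limma's adjusted p was under 0.05. A gene is represented by the brightest of its tested probe sets unless another is named. The arrays were of muscle by their defining markers: Ckm, muscle creatine kinase, stood at 18486 to 18926 in trained transgenic and 18045 to 18539 in trained wild-type mice, and Acta1, skeletal actin, at 17943 to 18805 in trained transgenic and 17553 to 18463 in trained wild-type mice. Median intensity ran from 156.4 to 174.7 over the 20 arrays. The array of the wild-type mouse wtt-137 stood apart: it had 822 empty cells, against 386 in TGT-133 and 4 to 32 in the other 8 trained mice. Its residual SD was 0.243 log2, against 0.108 to 0.185 in the others, and its position on the first principal component, -19.7, lay beside those of the trained transgenic mice (-18.2 to -7.56) and away from the other trained wild-type mice (-1.35 to 16.4). Where leaving it out moved a named gene's adjusted p to under 0.05, that is stated. Values of single mice are listed in the order TGT-128, TGT-132, TGT-133, TGT-140 and TGT-143, and then WTT-129, wtt-134, wtt-137, WTT-141 and WTT-144.

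**Figure D1:**
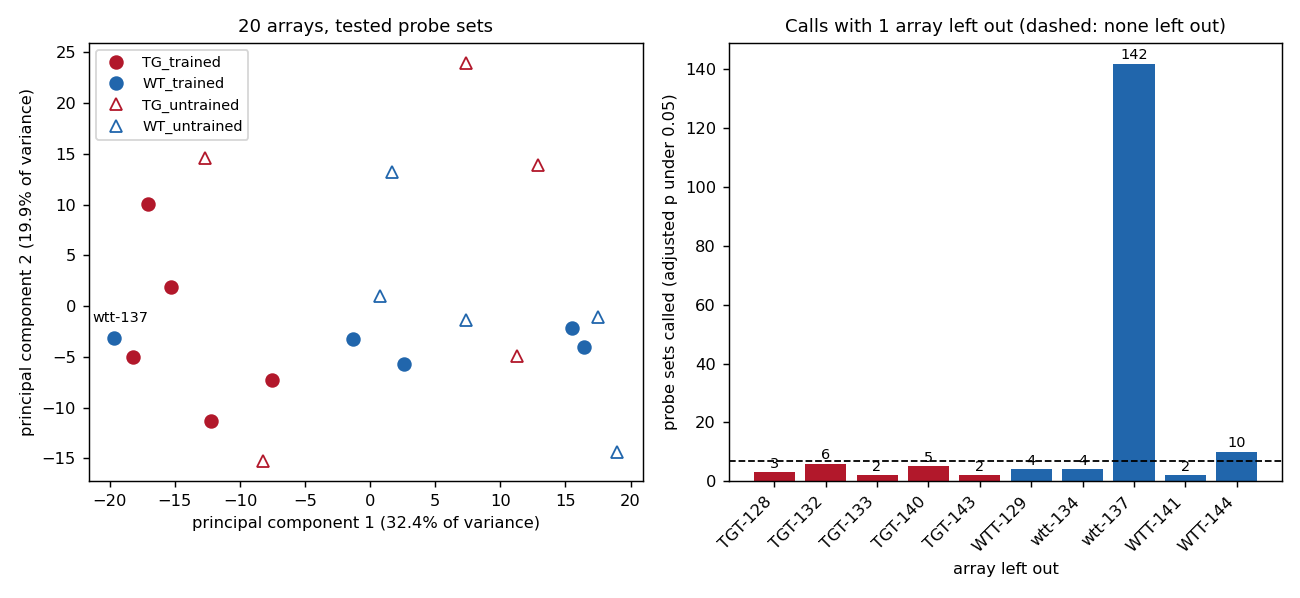
Left, the 20 arrays on the first 2 principal components of the tested probe sets, with trained mice as filled circles and untrained mice as open triangles; transgenic mice are red and wild-type mice blue. Right, number of probe sets called between trained transgenic and trained wild-type mice when the array named on the horizontal axis is left out, with 7 as the count with every array (dashed). Leaving out wtt-137 gave calls for 1.05% of probe sets, and leaving out any other array gave 2 to 10 calls.

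In trained mice limma called 7 of 13576 tested probe sets (0.0516%), all lower in transgenic mice. They carry 6 gene symbols, and 5 of these are slow-fibre genes: Myl2, Myl3, Tnni1, Tnnt1 and Atp2a2. The sixth is Enc1. Of the 7, 4 are of kinds that by their design can bind several transcripts of one gene or of several genes: those of Enc1, Tnni1 and Tnnt1 and 1 of the 2 of Myl3. At an unadjusted p under 0.05 there were 1692 (12.5%), of which 563 (4.15%) had positive and 1129 (8.32%) negative differences. By gene, 4.02% were above and 7.68% below 0 at that level. The median over the 8486 genes was 0.01, and 54.5% of genes lay above 0. Large differences were few: 49 probe sets passed 1 on the log2 scale in either direction. Without wtt-137 the calls made up 1.05% of probe sets, with 13 higher (0.0958%) and the others, 0.95% of probe sets, lower, and they included each of the 7.

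Slow-fibre genes had the lowest median difference of the 37 gene lists examined. Of 12 listed, 11 were tested: all 11 had differences below 0 (10 under quantile normalization), 3 fell (0.0471% of all genes did), 9 had an unadjusted p under 0.05 (7.68% of all genes, on the lower side), and the median difference was -1.27, against 0.01 over all genes. Without wtt-137, 6 fell (0.907% of all genes) and the median was -1.41. In 8 of the 11 the highest transgenic mouse was below the lowest wild-type mouse, as it was in 1.61% of all genes. In whole muscle, fewer slow fibres and less slow-fibre RNA per fibre cannot be told apart.

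Among the thick-filament genes, Myl2, the regulatory light chain of slow and cardiac myosin, was at 200.2, 337, 141.4, 398 and 173 in trained transgenic mice and at 1495, 1826, 1285, 3013 and 1406 in trained wild-type mice. The groups did not overlap, and the highest transgenic mouse, TGT-140, was far below the lowest wild-type mouse, wtt-137. Myl2 averaged 249.9 ± 111 in trained transgenic mice and 1805 ± 705 in trained wild-type mice (SD, n = 5 each) and fell by 2.57 ± 0.39 on the log2 scale (SE; 5.92-fold, adjusted p = 0.0104). Myl3, the essential light chain of slow and ventricular myosin, was read by 3 probe sets that disagreed in size. The second brightest had 119, 290.4, 109.9, 221 and 126 in trained transgenic mice and 1451, 1967, 583, 2205 and 844 in trained wild-type mice, and fell by 2.53 ± 0.43 (adjusted p = 0.0228). The dimmest fell by 2.04 ± 0.33 (adjusted p = 0.0169), and the brightest had a difference of -0.64 ± 0.23 (adjusted p = 0.287). Both the brightest and the dimmest are of kinds that can bind several transcripts. Myh7, the slow myosin heavy chain, had 348, 510.1, 353, 434 and 332 in trained transgenic mice and 1189, 1458, 795, 2122 and 732 in trained wild-type mice. Its groups did not overlap either, with a difference of -1.43 ± 0.37, but it did not pass the threshold (adjusted p = 0.174, and 0.0551 without wtt-137).

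Of the thin-filament regulators, slow troponin T and troponin I fell. Tnni1, slow skeletal troponin I, had 119, 199, 162, 166 and 117 in trained transgenic mice and 581, 769, 534, 1129 and 446 in trained wild-type mice. It fell by 1.74 ± 0.25 (3.34-fold, adjusted p = 0.00678), and it was called in each of the 10 fits that left out 1 trained mouse. Tnnt1, slow skeletal troponin T, had 138.7, 262, 161, 279 and 137.8 in trained transgenic mice and 1005, 1662, 849, 2063 and 732 in trained wild-type mice. It fell by 2.28 ± 0.41 (4.84-fold, adjusted p = 0.0444), a call that held in 2 of those 10 fits. Its wild-type values ran from 732 in WTT-144 to 2063 in WTT-141, and why the call was lost in the other fits was not tested. Tnnc1, the troponin C shared by slow fibres and heart, had 756, 727, 852, 666 and 732 in trained transgenic mice and 1028, 1317, 946, no value and 949 in trained wild-type mice, with WTT-141 empty. Its groups did not overlap and its difference was -0.46 ± 0.16 (adjusted p = 0.284). For Tpm3, slow tropomyosin, the brightest probe set had a difference of -0.021 ± 0.098. A dimmer probe set of the same gene had 111, 209, 90.9, 179 and 95 in trained transgenic mice and 772, 1003, 421, 1644 and 433 in trained wild-type mice, with a difference of -2.05 ± 0.39 (adjusted p = 0.0568, and 0.0229 without wtt-137).

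**Figure D2:**
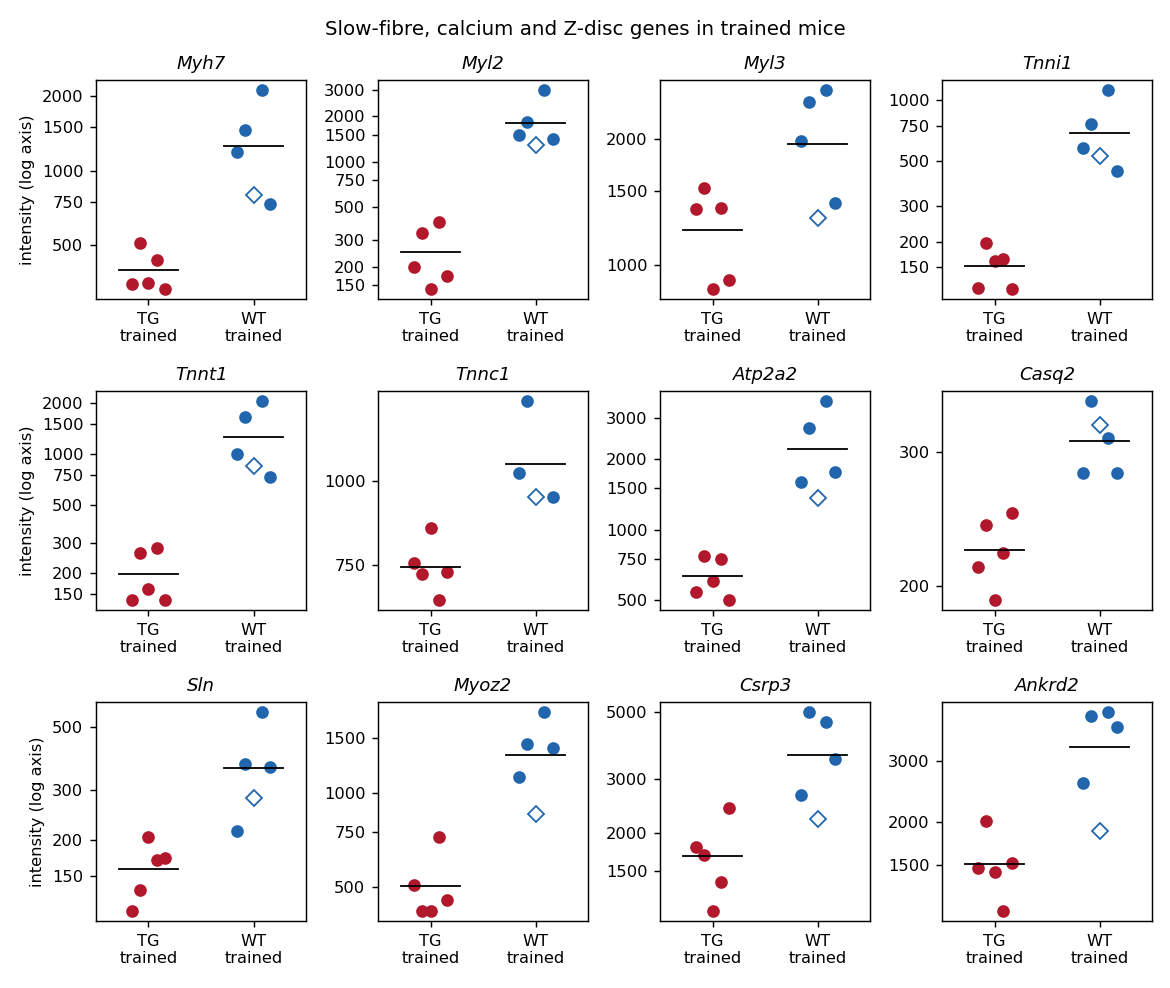
Intensity of 12 genes in each trained mouse, on log axes that differ between panels, with transgenic mice in red on the left and wild-type mice in blue on the right. Bars are group means of 5 mice (4 wild-type mice in Tnnc1), and the open diamond is wtt-137. In Myl2, Tnni1, Tnnt1, Myh7, Atp2a2, Myoz2, Casq2, Tnnc1 and Sln the 2 groups do not overlap.

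Of the calcium store genes, the slow-fibre pump fell and no fast-fibre gene passed. Atp2a2, the calcium pump of slow fibres and heart, was called by 1 of its 3 tested probe sets, the second brightest: it had 434, 580.3, 411, 673 and 483 in trained transgenic mice and 1569, 2855, 1361, 4001 and 1771 in trained wild-type mice, and fell by 1.93 ± 0.32 (adjusted p = 0.0191). The brightest probe set had a difference of -1.62 ± 0.31 (adjusted p = 0.0588, and 0.0254 without wtt-137) and the third one of -0.55 ± 0.12 (adjusted p = 0.0984, and 0.0337 without wtt-137). Sln, sarcolipin, an inhibitor of the pump, had 113, 134.03, 205, 171 and 174 in trained transgenic mice and 216, 369.6, 281, 564 and 362 in trained wild-type mice, a difference of -0.87 ± 0.20 (adjusted p = 0.122, and 0.0406 without wtt-137). Casq2, the calsequestrin of slow fibres and heart, stood at 223 ± 23.2 in trained transgenic mice and 310.4 ± 29.7 in trained wild-type mice (SD, n = 5 each), with a difference of -0.38 ± 0.080 (adjusted p = 0.091, and 0.0459 without wtt-137). Of the 17 tested calcium store and release genes, 13 lay above 0 and the median was 0.078, or 0.15 under quantile normalization. The pump of fast fibres, Atp2a1, had a difference of 0.0052, and the release channel Ryr1 one of -0.0046. The fast-fibre calsequestrin Casq1 had 6429.6, 5708, 5720.03, 5902 and 6978 in trained transgenic mice and 4508, 5046, 7032, 3262 and 4210.5 in trained wild-type mice, a difference of 0.39 ± 0.18 (adjusted p = 0.394). In Casq1 wtt-137 was the highest wild-type mouse and lay above each transgenic mouse.

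Fast-fibre genes showed no call among 14 tested: 12 lay above 0, with a median of 0.041. Myh4, the myosin heavy chain of the fastest fibres, averaged 14397 ± 618 in trained transgenic mice and 14021 ± 140.1 in trained wild-type mice (SD, n = 5 each), and Myh1 differed by 0.059 ± 0.076. Myh2, the myosin of the fast oxidative fibres, was at 7067, 4953, 6952, 6650.5 and 6898 in trained transgenic mice and 8486, 8579.9, 8051, 7995 and 8471 in trained wild-type mice. Each transgenic mouse lay below each wild-type mouse, but the difference of -0.36 ± 0.23 did not pass (adjusted p = 0.543), with TGT-132 far below the other 4. Summed over the 14 genes, intensity ran from 178056 to 184929 in trained transgenic mice and from 170911 to 179985 in trained wild-type mice. Summed over the 11 slow-fibre genes it ran from 13342 to 14874 in trained transgenic mice and from 18221 to 26852 in trained wild-type mice. Much of this sum came from Fhl1 and Tpm3, which differed by -0.13 ± 0.17 and -0.021 ± 0.098. Fhl1 averaged 6488 in trained transgenic and 7128 in trained wild-type mice, and Tpm3 averaged 3380 and 3442. The empty Tnnc1 cell of WTT-141 adds nothing to the sum of that mouse. Of 16 regulators of the slow programme, which include calcineurin, NFAT and Mef2 genes and Ppargc1a, none passed, and their median was 0.075. Ppargc1a, a coactivator of mitochondrial and slow-fibre genes, had 995, 738, 677, 748 and 802 in trained transgenic mice and 797, 904, 911, 1006 and 1339 in trained wild-type mice, a difference of -0.29 ± 0.37. The repressor of slow genes Sox6 differed by -0.090 ± 0.12.

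Promoter windows of the slow sarcomere genes whose transcripts fell are shown because these genes moved together. They come from RefSeq (GRCm38.p6), from 250 bases before to 50 after the start, in the direction of transcription, and were found for Myl2, Myl3, Tnni1 and Tnnt1, with the first listed start where a gene had more. Capitals mark 2 motifs searched on both strands: the E-box CAGCTG, which myogenic factors are known to bind and which reads the same on either strand, and the MCAT element CATTCC, known for TEAD factors, which reads GGAATG on the opposite strand. Of 32851 promoters of the same length, 16.3% hold the E-box and 14.7% the MCAT element.
Myl2, chr5:122092474-122092773, + strand: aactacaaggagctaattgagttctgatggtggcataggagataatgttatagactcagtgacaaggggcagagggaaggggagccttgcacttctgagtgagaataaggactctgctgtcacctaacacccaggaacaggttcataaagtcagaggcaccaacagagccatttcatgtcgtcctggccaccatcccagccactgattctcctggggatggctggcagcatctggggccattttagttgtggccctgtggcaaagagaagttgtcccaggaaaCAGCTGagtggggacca
Myl3, chr9:110763428-110763727, + strand: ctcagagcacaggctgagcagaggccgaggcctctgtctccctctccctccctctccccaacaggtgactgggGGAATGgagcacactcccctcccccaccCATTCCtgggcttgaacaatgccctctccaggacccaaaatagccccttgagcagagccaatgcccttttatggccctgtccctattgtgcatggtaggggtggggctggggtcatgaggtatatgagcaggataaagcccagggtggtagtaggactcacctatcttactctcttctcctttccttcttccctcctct
Tnni1, chr1:135799171-135799470, + strand: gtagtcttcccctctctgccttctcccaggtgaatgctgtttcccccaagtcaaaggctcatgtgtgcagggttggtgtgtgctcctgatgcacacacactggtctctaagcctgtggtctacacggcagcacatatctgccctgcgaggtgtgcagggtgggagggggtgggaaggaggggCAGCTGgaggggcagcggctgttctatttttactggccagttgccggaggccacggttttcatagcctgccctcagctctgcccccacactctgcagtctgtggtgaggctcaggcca
Tnnt1, chr7:4515926-4516225, - strand: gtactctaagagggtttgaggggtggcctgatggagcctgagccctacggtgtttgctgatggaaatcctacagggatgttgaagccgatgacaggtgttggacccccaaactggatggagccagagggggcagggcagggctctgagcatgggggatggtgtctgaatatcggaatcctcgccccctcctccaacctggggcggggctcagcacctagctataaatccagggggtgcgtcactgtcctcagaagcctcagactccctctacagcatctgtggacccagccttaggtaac
Myl2 and Tnni1 have 1 E-box each, Myl3 has 2 MCAT elements, and no match to either motif lies in the Tnnt1 window. The motifs overlap nowhere, and a match describes the letters only.

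The Z-disc and stretch-response genes were mixed, with 11 of 19 below 0, a median of -0.046 and none passing. Under quantile normalization 9 lay below 0 and the median was 0.039, on the other side of 0. Myoz2, calsarcin-1 of slow fibres, which holds calcineurin at the Z-disc, had 504, 416, 418, 719 and 452 in trained transgenic mice and 1125, 1428, 856, 1812 and 1386 in trained wild-type mice, a difference of -1.27 ± 0.29 (adjusted p = 0.122, and 0.0401 without wtt-137). Its fast-fibre relative Myoz1 averaged 9530.5 ± 228 in trained transgenic mice and 8603 ± 674 in trained wild-type mice (SD, n = 5 each), with every transgenic mouse above every wild-type mouse and a difference of 0.15 ± 0.045 (adjusted p = 0.228). The 2 relatives thus lay on opposite sides of 0. Ankrd2, a stretch-induced ankyrin repeat protein, had 1474, 2009.9, 1433, 1102 and 1518 in trained transgenic mice and 2583, 4042, 1886, 4149.6 and 3743 in trained wild-type mice, a difference of -1.05 ± 0.26 (adjusted p = 0.16, and 0.0359 without wtt-137). In untrained mice Ankrd2 was called, with a difference of -1.64 ± 0.27 (adjusted p = 0.0258). Csrp3, the muscle LIM protein, had 1798, 1699, 1107, 1379.7 and 2417 in trained transgenic mice and 2672, 4990.1, 2220.04, 4609.9 and 3505 in trained wild-type mice. Its difference was -1.05 ± 0.40 (adjusted p = 0.307), against -2.56 ± 0.40 in untrained mice, and the test of the difference between training states had an unadjusted p of 0.0155. The alpha-actinin genes were likewise on opposite sides, with -0.45 ± 0.14 for Actn2 and 0.10 ± 0.047 for Actn3, the fast-fibre form.

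Enc1, an actin-binding kelch protein, had the smallest p in the comparison. It was at 128.3, 99.5, 201, 135.4 and 145.96 in trained transgenic mice and at 506, 513, 507, 489 and 439 in trained wild-type mice. The wild-type mice lay close together and far above the transgenic ones. Enc1 averaged 142.1 ± 37.3 in trained transgenic mice and 491 ± 30.5 in trained wild-type mice (SD, n = 5 each) and fell by 1.43 ± 0.19 (2.7-fold, adjusted p = 0.00535), and was called in each of the 10 fits that left out 1 trained mouse. In untrained mice it stood at 187, 557, 432, 275 and 182 in transgenic mice and at 417 to 552 in wild-type mice. There 1 transgenic mouse lay within the wild-type range and 1 above it, the difference was -0.60 ± 0.19 (adjusted p = 0.345), and the test of the difference between training states gave an unadjusted p of 0.00642, not past the threshold after adjustment. The other tested probe set of Enc1 ran from 221 to 256 in trained transgenic mice and from 242 to 264 in trained wild-type mice, a difference of -0.092 ± 0.062 (adjusted p = 0.56). The 2 probe sets of Enc1 thus disagree, and the call rests on 1 of them.

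The called genes were also on the lower side in the untrained animals, which share no array with the trained ones. All 7 called probe sets had the same sign and an unadjusted p under 0.05 there (8.12% of probe sets had such a p in either direction), and 2 of them, of Myl2 and Tnni1, were called there. Both comparisons come from the same fit, which shares its estimate of each probe set's spread, so their p-values are not independent. With the untrained groups fitted alone, no probe set was called. Myl2 differed by -2.20 ± 0.39 in untrained mice, Tnni1 by -1.28 ± 0.25, and Tnnt1 by -1.70 ± 0.41. Of the 1692 probe sets with an unadjusted p under 0.05 in trained mice, 83.3% had the same sign in untrained mice, against 68.8% of all tested probe sets. Across the table, limma called 0 probe sets for a difference of the transgene effect between training states, 395 (2.91%) had an unadjusted p under 0.05, and with array weights 7 were called. Of the 7 probe sets called in trained mice, only that of Enc1 was among the 395. Untrained mice alone had 15 calls (0.11%), 13 of them lower.

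**Figure D3:**
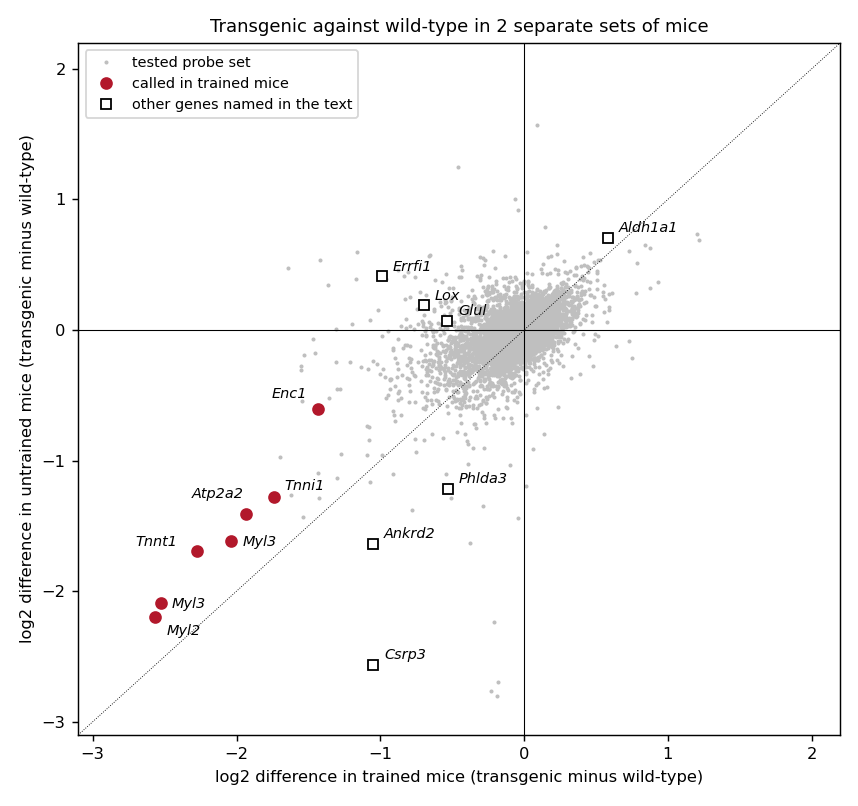
Transgenic minus wild-type log2 difference of each of 13576 tested probe sets in trained mice (horizontal) and in untrained mice (vertical), 5 against 5 mice each, with the dotted line at equal differences. The 7 probe sets called in trained mice (red) lie in the lower left, and Glul, Errfi1 and Lox (open squares) are below 0 in trained mice and above 0 in untrained mice.

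Glucocorticoid-responsive genes lay mostly below 0 in trained transgenic mice, with no member past the threshold when every mouse was kept. Of 16 tested, 14 lay below 0, 0 passed, 8 had an unadjusted p under 0.05 (7.68% of all genes, on the lower side), and the median was -0.52 (0.01 over all genes). In untrained mice the median was 0.067, and for 6 of the 16 the test of the difference between training states had an unadjusted p under 0.05, against 2.91% of all probe sets. Glul, glutamine synthetase, had 2309.8, 2516, 2688, 2659 and 2647 in trained transgenic mice and 3559, 3268, 2796, 4411 and 5106 in trained wild-type mice. The groups did not overlap, and the difference was -0.54 ± 0.15 (adjusted p = 0.201). Cebpd, a transcription factor induced by glucocorticoids and inflammation, had 1014, 1444, 1001, 861 and 1105 in trained transgenic mice and 2803, 2719.8, 983, 3574 and 4045 in trained wild-type mice, where wtt-137 was the only wild-type mouse within the transgenic range. Its difference was -1.21 ± 0.38 (adjusted p = 0.251). Errfi1, an inhibitor of EGF receptor signalling, had 388, 462, 476, 445 and 683 in trained transgenic mice and 705, 959, 700.1, 1511 and 1531 in trained wild-type mice, a difference of -0.99 ± 0.28 (adjusted p = 0.22) in trained mice, against 0.41 ± 0.28 in untrained mice (unadjusted p = 0.00238 for the difference between training states). The metallothioneins Mt1 and Mt2, which bind zinc, differed by -0.66 ± 0.23 and -0.82 ± 0.30, and Zbtb16 by -0.74 ± 0.21. Without wtt-137, Glul, Cebpd and Klf9 fell, by 0.64, 1.54 and 0.58 (adjusted p = 0.0405 each).

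Genes of protein breakdown, autophagy and p53 also lay mostly below 0, the autophagy genes by little. Of 21 atrophy and proteolysis genes, 18 lay below 0 with a median of -0.33 and 0 passed. An unadjusted p under 0.05 was reached by 7 (7.68% of all genes, on the lower side), a count that ran from 4 to 14 with 1 mouse left out. Sesn1, a p53 and Foxo target that restrains mTORC1, had 476, 910.5, 446, 448 and 672 in trained transgenic mice and 1544, 1627, 417, 3317 and 3507 in trained wild-type mice. In WTT-141 and WTT-144 it was far above every transgenic mouse, while wtt-137 lay below each of them, and the difference was -1.45 ± 0.51 (adjusted p = 0.287, and 0.0484 without wtt-137). Ctsl, the lysosomal protease cathepsin L, had 648, 1114, 762, 771 and 831 in trained transgenic mice and 1824, 1249.5, 735, 3601 and 3589 in trained wild-type mice, a difference of -1.13 ± 0.39 (adjusted p = 0.277). Fbxo32, the ubiquitin ligase atrogin-1, ranged from 1666 to 4930.2 in trained transgenic mice and from 1149 to 6184 in trained wild-type mice, a difference of -0.55 ± 0.43, with wtt-137 as the lowest of all 10. Of 20 autophagy genes 16 lay below 0 with a median of -0.077, against 11 with a median of -0.0081 under quantile normalization. Gabarapl1, an Atg8-family protein of autophagosomes, had 802, 1481, 1185, 1110.2 and 1361 in trained transgenic mice and 2707, 2705, 1028, 5592 and 5312 in trained wild-type mice, a difference of -1.30 ± 0.39 (adjusted p = 0.228, and 0.0354 without wtt-137). Of 12 p53 targets 9 lay below 0 with a median of -0.32. Cdkn1a, the cell cycle inhibitor p21, differed by -1.02 ± 0.35 (adjusted p = 0.276).

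In these lists the wild-type group was itself divided. The mean deviation of the 21 atrophy genes from their own mean was 0.46 in WTT-141 and 0.54 in WTT-144, but -0.44 in wtt-137, lower than in each transgenic mouse (-0.33 to 0.00). For the 16 glucocorticoid genes it was 0.63 in WTT-144 and -0.24 in wtt-137. In wtt-137, 9 of the 16 glucocorticoid genes (56.25%) lay within the transgenic range, against 1 to 6 (6.25% to 37.5%) in the other wild-type mice. Over all genes the share was 61.7% in wtt-137, near that of this list, and 51.3% to 75.6% in the other wild-type mice. Of the slow-fibre genes in wtt-137, 8 of 11 lay above every transgenic mouse, and 8 to 10 in the other wild-type mice. Over all 8486 genes, 1630 did so in wtt-137, and 1255 to 2051 in the other wild-type mice. The part of wtt-137 and of the spread among wild-type mice in the results on glucocorticoid, atrophy, autophagy and p53 genes was not tested beyond leaving that mouse out.

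**Figure D4:**
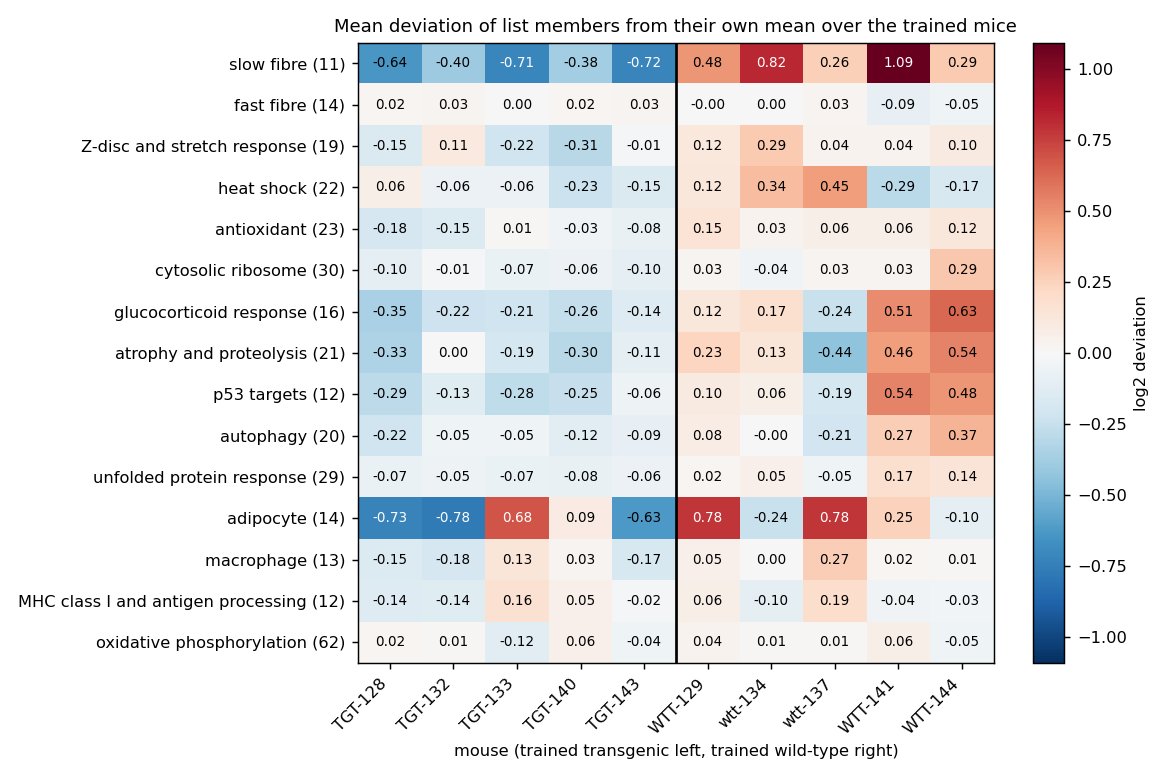
Mean deviation (log2) of the members of 15 gene lists from their own mean over the 10 trained mice, per mouse, with the number of tested members in brackets, transgenic mice left of the black line and wild-type mice right of it; red is above and blue below the mean. The slow fibre list is negative in each transgenic and positive in each wild-type mouse, while the glucocorticoid, atrophy and p53 lists are negative in wtt-137 too.

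The MHC class I genes did not separate the genotypes. H2-K1, a heavy chain of the class I complex, had 774, 737, 1750.3, 1117 and 958 in trained transgenic mice and 1372, 890.2, 1753, 1029 and 1067 in trained wild-type mice. The highest mouse of each group was the one with most empty cells, TGT-133 and wtt-137, and the difference was -0.21 ± 0.22 (adjusted p = 0.731). H2-D1 differed by -0.21 ± 0.22 and B2m, the light chain, by -0.032 ± 0.18, a value whose sign turned under quantile normalization. Of 12 tested class I and antigen processing genes 6 lay above and 6 below 0, with a median of 0.0022 and none at an unadjusted p under 0.05. Of 13 interferon-response genes 11 lay above 0, again none at that level, with a median of 0.049. The sources used here do not say whether these probe sets read the transgene, so they do not check the genotype labels. Hspa5, the chaperone BiP of the endoplasmic reticulum, differed by -0.054 ± 0.12. Of 29 unfolded protein response genes 20 lay below 0 with a median of -0.053, 0 passed and 6 had an unadjusted p under 0.05 (7.68% of all genes, on the lower side). Under quantile normalization 15 of them lay below 0, with a median of -0.014, and without WTT-141 or WTT-144 3 had such a p. Atf4, a transcription factor of the stress response, had 1912, 1781, 2112, 1941 and 1807 in trained transgenic mice and 2428, 2429, 2022, 2877 and 2729 in trained wild-type mice, a difference of -0.37 ± 0.11 (adjusted p = 0.225).

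Chaperone, antioxidant and ribosomal protein genes lay mostly below 0 by small amounts, and none of their members passed. Of 22 heat shock genes 20 lay below 0 with a median of -0.17, which was -0.068 without wtt-137, a mouse whose mean deviation for this list was 0.45, the highest of the 10. Under quantile normalization 16 lay below 0 and the median was -0.083. Bag3, a co-chaperone of filamin turnover, had 1684, 1519, 1623, 1500.2 and 1695 in trained transgenic mice and 2008, 2405, 2243, 2017 and 2198 in trained wild-type mice. The groups did not overlap, and the difference was -0.42 ± 0.13 (adjusted p = 0.228). Hspa8, the constitutive Hsp70, differed by -0.057 ± 0.060 in trained mice and by -0.35 ± 0.060 in untrained mice (unadjusted p = 0.00269 for the difference between training states). Of 23 antioxidant genes 18 lay below 0, with a median of -0.17, against 15 and -0.082 under quantile normalization. Txn1, thioredoxin, had 923, 873, 1092, 1079 and 1032 in trained transgenic mice and 1329.7, 1190.3, 1367, 1442 and 1406 in trained wild-type mice, without overlap and with a difference of -0.41 ± 0.12 (adjusted p = 0.225). The other tested probe set of Txn1, a dimmer one, differed by 0.13 ± 0.074. Sod1, the cytosolic superoxide dismutase, differed by -0.29 ± 0.094, while the quinone reductase Nqo1 differed by 0.12 ± 0.039. Of 30 cytosolic ribosomal protein genes 29 lay below 0 and 14 had an unadjusted p under 0.05 (7.68% of all genes, on the lower side), with a median of -0.14. Under quantile normalization the median was -0.047 and 2 had such a p. The mean deviation of this list was 0.29 in WTT-144, against -0.041 to 0.033 in the other 4 wild-type mice. Without WTT-144 the median was -0.078 and 7 had an unadjusted p under 0.05. Rps14 averaged 3583 ± 157 in trained transgenic mice and 3946 ± 179 in trained wild-type mice (SD, n = 5 each), a difference of -0.14 ± 0.045 (adjusted p = 0.259).

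Oxidative metabolism, which endurance training is known to raise, was near 0 between the genotypes. The 62 oxidative phosphorylation genes had a median of -0.019, with 40 below 0 and 2 at an unadjusted p under 0.05 (7.68% of all genes, on the lower side). The 22 citric acid cycle genes had a median of -0.038. Both medians were above 0 under quantile normalization, at 0.066 and 0.052. Citrate synthase, Cs, averaged 4948 ± 179.9 in trained transgenic mice and 4667 ± 272 in trained wild-type mice (SD, n = 5 each), a difference of 0.084 ± 0.052 (adjusted p = 0.521), with overlapping groups. The 28 genes of fatty acid uptake and oxidation had a median of -0.085, or -0.015 under quantile normalization. Pdk4, the kinase that shuts off pyruvate dehydrogenase in fasting, ran from 1867 to 6151 in trained transgenic mice and from 3441 to 8331 in trained wild-type mice, a difference of -0.74 ± 0.30 (adjusted p = 0.328). Of 22 genes of acetate, ketone and amino acid use, 20 lay below 0, and 13 under quantile normalization. Acss1, the mitochondrial acetyl-CoA synthetase, had 184, 194, 238, 261 and 189 in trained transgenic mice and 697, 558, 206, 1605 and 1531 in trained wild-type mice, a difference of -1.54 ± 0.45 (adjusted p = 0.227, and 0.0401 without wtt-137). Bdh1, the ketone body enzyme 3-hydroxybutyrate dehydrogenase, differed by -1.09 ± 0.30 (adjusted p = 0.21, and 0.0455 without wtt-137).

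Over all tested genes, whether on a list or not, the lower genes with the smallest p after those called were Ehd4, Ablim1, Ighm, Pla2g12a (adjusted p = 0.0876, and 0.00442 without wtt-137) and Lox. Ehd4, an endocytic recycling protein, had 202, 258, 172, 222 and 213 in trained transgenic mice and 360.2, 444, 275, 434 and 457 in trained wild-type mice, a difference of -0.71 ± 0.14 (adjusted p = 0.0613, and 0.00886 without wtt-137). Ablim1, an actin-binding LIM protein, differed by -0.65 ± 0.13 (adjusted p = 0.0613, and 0.00442 without wtt-137). In Ehd4 the groups did not overlap, and in Ablim1 the only wild-type mouse within the transgenic range was wtt-137. Lox, lysyl oxidase, which cross-links collagen, had 245, 278, 303, 227 and 402 in trained transgenic mice and 424, 492, 394, 662 and 596 in trained wild-type mice, a difference of -0.70 ± 0.14 (adjusted p = 0.0876, and 0.0285 without wtt-137). In untrained mice it differed by 0.19 ± 0.14, and the difference between training states had an unadjusted p of 0.000328. Prg4, lubricin, showed the same contrast, with -1.01 ± 0.23 in trained mice (adjusted p = 0.117, and 0.036 without wtt-137), 0.15 ± 0.23 in untrained mice, and an unadjusted p of 0.00165 for the difference. Collagen chains of the basement membrane, Col4a1 and Col4a2, differed by -0.50 ± 0.14 (adjusted p = 0.201, and 0.0484 without wtt-137) and -0.43 ± 0.12, and the tendon matrix protein Thbs4 by -0.78 ± 0.17. The 28 fibroblast and matrix genes as a list had a median of 0.0013, or -0.10 without WTT-144, and Col1a1 and Col1a2 of fibrillar collagen lay at 0.19 and 0.23. Tnfrsf12a, the TWEAK receptor, had 1056, 1339.8, 1254, 862 and 1081 in trained transgenic mice and 1521, 2186, 1923, 1789 and 2203 in trained wild-type mice, without overlap and with a difference of -0.75 ± 0.18 (adjusted p = 0.138). A dimmer probe set of Tnfrsf12a differed by -0.91 ± 0.18 (adjusted p = 0.0712, and 0.0405 without wtt-137). In untrained mice that probe set was called, with a difference of -1.10 ± 0.18 (adjusted p = 0.0254).

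With every mouse included, limma called 0 genes higher in trained transgenic mice (341 genes, 4.02%, were above 0 at an unadjusted p under 0.05, and 238 probe sets were called higher with array weights). Those with the smallest p are given as values. Nr4a2, an orphan nuclear receptor of the immediate early class, had 1352, 1393, 1588, 1300.5 and 1669 in trained transgenic mice and 1107, 1278, 1065, 915 and 979.5 in trained wild-type mice, a difference of 0.43 ± 0.10 (adjusted p = 0.138). Smad3, which relays TGF-beta and myostatin signals, averaged 619 ± 51.4 in trained transgenic mice and 453 ± 79.1 in trained wild-type mice (SD, n = 5 each), a difference of 0.41 ± 0.096 (adjusted p = 0.148) against -0.030 ± 0.11 in untrained mice (unadjusted p = 0.00739 for the difference between training states). In both genes every transgenic mouse lay above every wild-type mouse, as in 0.955% of all genes. Aldh1a1, a retinaldehyde dehydrogenase, had 1093, 1121, 1016, 1069 and 1325 in trained transgenic mice and 798, 689, 994, 482 and 763 in trained wild-type mice. The groups did not overlap, the difference was 0.58 ± 0.14 (adjusted p = 0.16), and untrained mice differed by 0.71 ± 0.14. Without wtt-137, 8 genes rose (0.0943% of genes): Aldh1a1, Dusp12, Parm1, Tmod4, Dbp, Abcd2, Cbr2 and Hdhd2. The rise of Dusp12 rests on 1 probe set: its other one differed by 0.00078 ± 0.046 with every mouse (adjusted p = 0.976 without wtt-137). Tmod4, the tropomodulin that caps thin filaments in skeletal muscle, had 3833, 3771, 3691, 3767 and 3904 in trained transgenic mice and 3021, 3279.7, 3696, 2447 and 2758 in trained wild-type mice, and rose by 0.40 without wtt-137 (adjusted p = 0.0354), against 0.33 ± 0.087 with it (adjusted p = 0.201). Dbp, a clock output factor, had 909.7, 145.9, 458, 586 and 439 in trained transgenic mice and 127.1, 100.2, 727, 74 and 87.2 in trained wild-type mice, and rose by 1.66 without wtt-137 (adjusted p = 0.0405), against 1.20 ± 0.45 with it (adjusted p = 0.296). In Dbp, wtt-137 exceeded the other 4 wild-type mice and all but 1 transgenic mouse. Pcnx3, Tm7sf2, Wdr43 and Epcam had differences of 0.21, 0.23, 0.35 and 0.37 and did not pass under either setting. The other tested probe set of Wdr43 lay on the other side of 0, at -0.091 ± 0.070.

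Markers of other cells in muscle were set beside these values. The adipocyte list had 13 of 14 members below 0 and a median of -0.37, with 4 at an unadjusted p under 0.05 (7.68% of all genes, on the lower side) and none past the threshold. Its summed intensity ran from 20142 to 42415 in trained transgenic mice and from 28172 to 43656 in trained wild-type mice. Adipoq, adiponectin, had 160.4, 62.5, 2728, 1387 and 162 in trained transgenic mice and 1610.3, 426, 2116, 753 and 452 in trained wild-type mice, so both groups ranged widely and overlapped. Scd1, a lipid desaturase, had 481, 384, 2869, 629.6 and 629.9 in trained transgenic mice and 5019, 855, 5795, 2845 and 1497 in trained wild-type mice, a difference of -1.70 ± 0.60 (adjusted p = 0.285). The macrophage list had 10 of 13 members below 0, 5 of them at an unadjusted p under 0.05 (7.68% of all genes, on the lower side), and 1 without wtt-137. The summed intensity of the list ran from 3586 to 4555 in trained transgenic mice and from 4124 to 4886 in trained wild-type mice. Lyz1 and Lyz2 of the macrophage list, lysozymes of nearly the same sequence that arrays may not tell apart, differed by -0.63 ± 0.21 and -0.41 ± 0.15. Cd68 was too dim to be tested. The T and NK cell list had 5 of 15 genes tested, all above 0, with a median of 0.10, and Prf1, perforin, differed by 0.14 ± 0.056 (adjusted p = 0.334). Ighm, the heavy chain of immunoglobulin M, had 1295, 858, 1058, 819.7 and 1002 in trained transgenic mice and 1484, 1783, 2108, 1645 and 3279.9 in trained wild-type mice, without overlap and with a difference of -0.95 ± 0.19 (adjusted p = 0.0712, and 0.0405 without wtt-137). The 4 other tested Ighm probe sets lay between -0.41 and 0.23, on both sides of 0. The MHC class II and B cell list, which holds Ighm, had 4 of 14 genes tested. Of these 2 lay above and 2 below 0, with a median of 0.020, and only Ighm had an unadjusted p under 0.05. The part of these cells in the results was not tested.

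**Figure D5:**
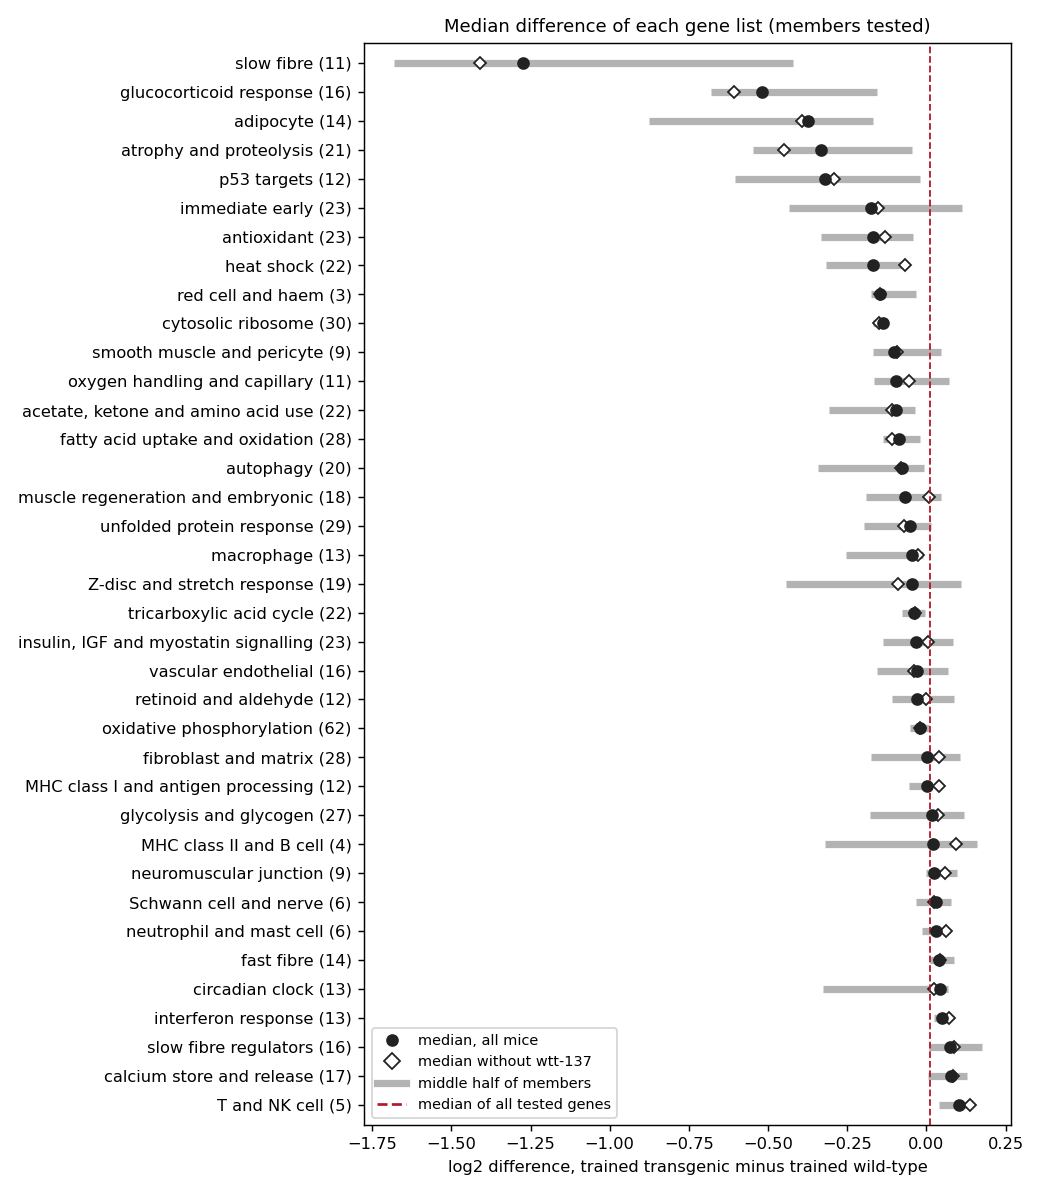
Median transgenic minus wild-type log2 difference of each gene list in trained mice, with all 10 mice (filled circles) and without wtt-137 (open diamonds); grey bars are the interquartile range of members with all mice, numbers in brackets are tested members, and the dashed line is the median of all 8486 genes. The slow fibre list lies at -1.27 with all mice and -1.41 without wtt-137, and the glucocorticoid list, the next lowest, at -0.52 and -0.61.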

How the data were processed

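RNA of skeletal muscle was hybridised to Affymetrix 3' arrays, 1 per mouse, with biotin label per the labels. The authors deposited a table of linear intensity values, 1 for each probe set, already brought to like medians as read from its values; the sources used here do not give the summary and scaling methods, the genome build or the reason for empty cells. Gene symbols came from the platform's annotation, with 20351 of 20380 single symbols matched by gene ID in RefSeq's table of GRCm38.p6 and 0 changed.

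Of 22690 probe sets, 64 controls were dropped and 13576 kept with a mean log2(intensity + 66.7) over all 20 arrays at or above the 40th percentile (7.59, about 126 in intensity). Empty cells were left missing (906 tested probe sets have one). limma 3.58.1 (R 4.3.3) fitted 4 group means to all 20 arrays, with trended moderated variances and 16 residual degrees of freedom. The tests were two-sided, adjusted by Benjamini-Hochberg over 13576 probe sets. Precision is limited by the number of arrays, not by a read depth. Each p-value sets a difference between groups against the moderated spread between mice within groups, taken over all 4 groups together. limma was also tested on simulated data.

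Alternatives were other scaling, constants, filters, variance settings, array weights, the compared groups alone, probe set kinds and left-out arrays. The mice, lists, settings and rule for naming genes were chosen with earlier results of these data known. The rule takes called genes, those with the smallest p in each direction with and without wtt-137, the slow fibre list, 1 higher and 1 lower member of each other list, and a set of muscle and immune genes. Errfi1, Mt1, Mt2, Zbtb16, Klf9, Prg4, Col4a1, Col4a2, Col1a1, Col1a2, Thbs4, Tnfrsf12a, Casq1, Actn2, Actn3, Atp2a1, Ryr1, Bdh1, Sod1, Rps14, Hspa8, Ctsl, Fbxo32, Cdkn1a, Sox6, Lyz2 and second probe sets of a gene, as well as genes of the closing section not covered by the rule, were picked after their values were seen.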

Additional observations from a re-analysis of the deposited data

Results flagged for a closer look

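In 10 of 248 groups of 5 mice, fewer where a cell is empty (124 genes, trained mice of each genotype), 1 mouse lay unusually far from the others, by Dixon's ratio of its gap to the range of the group. For independent, normally spread groups about 1 in 20 would be so marked. Many of these genes were named for a small p and all share the same mice, so the count cannot be judged against that rate. In wild-type mouse wtt-137, Dbp at 727 and Smtn, a smooth muscle protein, at 431 were the highest, and Cebpd at 983 and Fbxo32 at 1149 were the lowest. These 4 were the only ones in the wild-type group. Among transgenic mice, TGT-133 was highest for Scd1 at 2869 and for Gclm, a subunit of glutathione synthesis, at 556. TGT-140 was highest for Pla2g12a, a secreted phospholipase, at 214. TGT-143 was highest for Slc2a1, the glucose transporter Glut1, at 313. TGT-132 was lowest for Myh2 at 4953, and TGT-128 lowest for Nqo1 at 136.1. The 2 mice with the most empty cells, wtt-137 and TGT-133, account for 6 of the 10. For Gclm the cell of wtt-137 is itself empty. No cause was tested for any of these values.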

How the results depend on the processing

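The count of calls in trained mice, 7, was 13 with the filter at the 60th percentile, 26 with the compared groups alone, 3 without probe sets that can bind several transcripts, 12 without both wtt-137 and TGT-133, and 900 with array weights (238 higher and 662 lower). The weights ran from 0.385 for TGUT-145 to 2.98 for WTT-129, with 0.474 for wtt-137 and 0.49 for TGT-133. Why array weights raised the count was not tested. Leaving out 1 mouse gave from 2 calls to about 1.4e+02, the last for wtt-137 (1.05% of probe sets). It gave 2 where WTT-141, TGT-143 or TGT-133 was dropped, 3 for TGT-128, and 4 for wtt-134 or WTT-129. Other settings gave 6 to 9. Enc1 and Tnni1 were called in 10 of 10 such fits, Myl2 in 7, a probe set of Atp2a2 in 5, Myl3 in 4 and 3, and Tnnt1 in 2. In untrained mice the count of 15 was 95 with array weights and 0 with the compared groups alone, and 2 to 26 with 1 mouse left out. The difference between training states had 7 calls with array weights and 0 in the other settings. Among single genes of the report or the lists, none past the threshold, the sign turned to above 0 for Tpm3 (0.060 under quantile normalization, 0.019 without wtt-137 and TGT-133, -0.10 to 0.032 with 1 mouse left out), B2m (0.056 under quantile normalization, -0.18 to 0.083 with 1 left out), Psmb8 (-0.042 to 0.018 with 1 left out), Hspa5 (0.0067 under quantile normalization, 0.090 with array weights, 0.013 without both mice, -0.11 to 0.038 with 1 left out), Hspa8 (0.030 under quantile normalization), Hspa1b (0.22 without both mice, -0.65 to 0.30 with 1 left out) and Sox6 (0.021 with array weights). Of 124 genes, 2672 values under alternatives kept sign and side of the threshold, 198 passed it newly and 15 lost it. These counts include an exact permutation test of each gene between the trained groups. That test was judged at an unadjusted p under 0.05, so not every new pass is one of limma's adjusted p. Quantile normalization moved the median over all genes to 0.033 and turned the sign of the median of the lists of Z-disc, oxidative phosphorylation, citric acid cycle, endothelial, insulin and myostatin, and retinoid genes. The cause was not tested. No paired analysis was possible because the mouse numbers in the titles are shared by no 2 groups.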

Other observations

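Transporters and enzymes of glucose use varied between members. Slc2a3, the glucose transporter Glut3, had 124, 225, 169, 141.5 and 207 in trained transgenic mice and 126, 119, 132.8, 94.7 and 117 in trained wild-type mice, a difference of 0.36 ± 0.11 (adjusted p = 0.24), and 0.47 ± 0.11 in untrained mice. Slc2a1, Glut1, had 263, 253, 263, 250.3 and 313 in trained transgenic mice and 331, 295, 293, 545 and 613 in trained wild-type mice, a difference of -0.47 ± 0.16 (adjusted p = 0.277). Slc2a4, the insulin-responsive Glut4, differed by -0.17 ± 0.062. The 27 glycolysis and glycogen genes had a median of 0.018, with 14 above and 13 below 0, or 0.068 under quantile normalization.

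At the neuromuscular junction, Musk, the receptor kinase that clusters acetylcholine receptors, had 174, 201, 242, 187 and 210.2 in trained transgenic mice and 290.4, 378, 143.7, 681 and 902 in trained wild-type mice, a difference of -0.82 ± 0.36 (adjusted p = 0.363). WTT-141 and WTT-144 were highest and wtt-137 lowest of the 10. Rapsn, which anchors the receptors, averaged 295 ± 26.7 in trained transgenic mice and 256 ± 15.5 in trained wild-type mice (SD, n = 5 each), a difference of 0.16 ± 0.067 (adjusted p = 0.334). The vessel wall genes Cdh5, of endothelial junctions, and Pdgfrb, of pericytes, differed by -0.37 ± 0.088 and -0.17 ± 0.044. A dimmer probe set of Pdgfrb differed by -0.49 ± 0.13 (adjusted p = 0.21, and 0.0405 without wtt-137). Without wtt-137 Cdh5 fell by 0.41 (adjusted p = 0.0405), while the 16 endothelial genes had a median of -0.039 without that mouse and, with every mouse, of -0.029, or 0.010 under quantile normalization. With every mouse 7 of the 16 lay above 0 and 9 below. Of 9 smooth muscle and pericyte genes 3 lay above 0 and 6 below, with a median of -0.10, and the highest, Smtn, differed by 0.36 ± 0.16 (adjusted p = 0.372). Acvr1b, a receptor of activin and myostatin, differed by -0.62 ± 0.22 in trained and by 0.38 ± 0.22 in untrained mice, with an unadjusted p of 0.00485 for the difference between training states. The other tested probe set of Acvr1b, a dimmer one, differed by 0.020 ± 0.073 in trained mice.

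Retreg1, a receptor of endoplasmic reticulum autophagy, had 2116, 4387, 2494, 2394 and 2839 in trained transgenic mice and 5929, 5725, 2464, 7434 and 8119 in trained wild-type mice. It fell by 1.27 without wtt-137 (adjusted p = 0.00758), and its difference with that mouse was -0.98 ± 0.26 (adjusted p = 0.201). Ppp1r15a, which reverses the stress-induced block of translation, fell by 1.04 without wtt-137 (adjusted p = 0.0398), against -0.82 ± 0.24 with it (adjusted p = 0.228).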
